A study of Mus musculus with 4 samples.

Results

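The 10 genes described here make the peptides that MHC class I molecules display and load them onto those molecules. They are Nlrc5, Tap1, Tap2, Tapbp, Tapbpl, Psmb8, Psmb9, Psmb10, Psme1 and Psme2, chosen by symbol out of 34097 genes counted, and each of the 10 was found in every library. Cells of transplanted mouse hearts had been sequenced on day 5 after grafting, in 3 allogeneic libraries (hearts placed into genetically different recipients, replicates 1, 2 and 3) and 1 isogeneic library (donor and recipient genetically alike, replicate 2, called the isograft below). The labels name no strain, age, genotype, drug or cell sort for either group. They also leave unsaid whether 1 replicate is 1 animal, so the p-values take in the spread among libraries alone, and that spread may be technical.

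MHC class I molecules show the surface of nearly every nucleated cell to CD8 T cells with short peptides cut from the cell's own proteins. The proteasome cuts the proteins. Its constitutive catalytic subunits can be replaced by Psmb8 (LMP7), Psmb9 (LMP2) and Psmb10 (MECL-1), which together form the immunoproteasome, and the PA28 cap made of Psme1 and Psme2 opens the barrel. The transporter Tap1-Tap2 carries the peptides into the endoplasmic reticulum, tapasin (Tapbp) holds the empty class I molecule at the transporter, and TAPBPR (Tapbpl) edits which peptides stay bound. Nlrc5 is the transactivator of class I genes, and interferon-gamma is the best known inducer of the whole set. In a rejected graft the class I molecules of the donor are among the antigens that recipient T cells see.

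Totals were between 51054446 and 63434265 UMIs (unique molecular identifiers, 1 per captured transcript) in the allogeneic libraries and 100038951 in the isograft. Cells left after filtering numbered 4737, 7663 and 5980 in the allografts, by replicate, while the isograft had 10341. Cells were put into classes by marker genes, none of which is among the 10, and a name such as macrophage is to be read as macrophage-like. The 10 genes leading each of 13 classes held 2 to 5 of its own markers and none of another class. The gates used these same markers, so this outcome was built in and is no separate check of the names. Between 10.5% and 27.0% of cells per library passed no gate. A further 285, 513 and 165 phagocytes in the allografts, by replicate, and 585 in the isograft were neither macrophages nor monocytes by the gates. They entered no test within a class. Replicate 3 stood apart from the other allografts in what it held. Fibroblasts numbered 54, 113 and 1731 by allogeneic replicate and 4686 in isograft tissue, and macrophages 1132, 1562 and 310 by allogeneic replicate and 2005 in isograft tissue. Results are therefore read within a class, and those that change without replicate 3 are given both ways. Levels are counts scaled to 1000000 UMIs of a class in a library (CPM), and since 3' tags give 1 UMI per transcript whatever its length, a gene is compared only with itself between classes or groups, or as a share of a fixed pair. Pairs of libraries shared 14 to 31 barcodes, 0.226% to 0.473% of the first library's barcodes.

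5 of the 10 genes sit together in the MHC on chromosome 17 of mm10, in the GENCODE M21 annotation. The labels give no strain, so whether the MHC of donor or recipient differs in sequence from mm10, which could change how many reads of these genes and of the H2 genes are counted, was not tested. Tapbp (33915899 to 33929292) lies apart from the other four, which follow each other as Psmb9 (34181987 to 34187764, minus strand), Tap1 (34187553 to 34197225), Psmb8 (34197721 to 34201454) and Tap2 (34203527 to 34216321). Psmb9 and Tap1 point away from each other, and their annotated 5′ ends overlap. Nlrc5 (94434356 to 94527272) and Psmb10 (105935735 to 105938444, minus strand) are on chromosome 8, Psme1 (55578123 to 55581529) and Psme2 (55587441 to 55591113, minus strand) are neighbours on chromosome 14, and Tapbpl (125223933 to 125231860, minus strand) is on chromosome 6. Promoter windows of RefSeq (build GRCm38.p6, 250 bases before to 50 after a start) were at hand for 7 of the 10: Tap1, Psmb9, Psmb8, Psmb10, Psme1, Psme2 and Tapbp. The windows of Tap1 and Psmb9 share 275 bases, since the pair is read in both directions from 1 stretch.

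Of the windows, 3 are shown because they hold the 3 kinds of letters searched for, as these genes moved together in the results that follow. Each runs 5′ to 3′ on the plus strand from 250 bases before RefSeq's start to 30 after it, and for Psmb8 and Psme1 that start lies downstream of the gene start given above, so that their windows fall inside the GENCODE gene, with the matched letters in capitals. For Tap1 (chr17:34187306-34187585) they are a CCAAT box, for Psmb8 (chr17:34197945-34198224) a gamma-activated site TTCNNNGAA, and for Psme1 (chr14:55578244-55578523) an interferon-stimulated response element, GAAA written again after a spacer of 2 bases, on the opposite strand.

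Tap1: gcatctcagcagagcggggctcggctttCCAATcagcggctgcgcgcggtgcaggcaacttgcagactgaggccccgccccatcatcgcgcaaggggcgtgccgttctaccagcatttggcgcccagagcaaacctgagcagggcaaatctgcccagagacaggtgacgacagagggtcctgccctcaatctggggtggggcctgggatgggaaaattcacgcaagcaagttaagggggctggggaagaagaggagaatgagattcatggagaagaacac
Psmb8: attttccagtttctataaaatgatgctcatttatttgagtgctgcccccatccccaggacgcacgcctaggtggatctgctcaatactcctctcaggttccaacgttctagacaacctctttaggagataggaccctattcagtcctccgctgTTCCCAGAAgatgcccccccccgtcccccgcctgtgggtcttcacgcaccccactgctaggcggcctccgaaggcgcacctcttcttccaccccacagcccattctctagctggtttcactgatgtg
Psme1: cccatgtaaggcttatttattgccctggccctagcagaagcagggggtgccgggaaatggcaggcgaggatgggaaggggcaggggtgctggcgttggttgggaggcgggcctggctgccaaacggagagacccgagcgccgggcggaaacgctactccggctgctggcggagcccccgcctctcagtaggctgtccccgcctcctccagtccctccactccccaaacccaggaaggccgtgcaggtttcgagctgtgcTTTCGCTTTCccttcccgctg

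Both strands of the windows were searched. The spaced GAAA pair was found in 3.44% of 32851 windows of this length, TTCNNNGAA in 8.30% and CCAAT in 37.4%. Of the 7 genes with a window, Psme1 alone held the first and Psmb8 alone the second, and CCAAT stood in Tap1, in Psmb9 (the same letters, read from the other side) and 2 times in Tapbp. A match is a description of letters, not of binding.

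All 10 genes were higher in the allografts in macrophages, neutrophils, endothelial cells and fibroblasts, the 4 classes in which each of them passed the edgeR quasi-likelihood test (adjusted p under 0.05 over all genes). The median log2 change of the 10 was 2.65 in macrophages, 3.37 in neutrophils, 2.58 in endothelial cells and 3.21 in fibroblasts, beside medians of -0.013, 0.024, -0.0047 and -0.020 over all genes tested. In macrophages 5.75% of 14797 genes were called higher, in neutrophils 4.01% of 4608, in endothelial cells 2.75% of 12450 and in fibroblasts 2.54% of 15605. In monocytes 8 of the 10 were called higher and in dendritic cells 3, where 1.44% of 12211 and 0.488% of 6145 genes were. In these 6 classes the isograft lay below every allogeneic library for all 10 genes. For Tapbp in dendritic cells the gap was narrow, 137 CPM in allogeneic replicate 2 and 133 CPM in the isograft. The share of all genes so placed was not counted in any class, so this is a description. None of the 10 was called lower in any class. Between the fits that leave 1 library out, the number of all genes called varied widely, as the last section gives. Without replicate 3 the dendritic count was 8 (4.15% of genes called higher), and without replicate 2 the monocyte count was 1 (0.324%), while in the other 4 classes leaving out any 1 allogeneic library left 8 to 10 called.

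**Figure D1:**
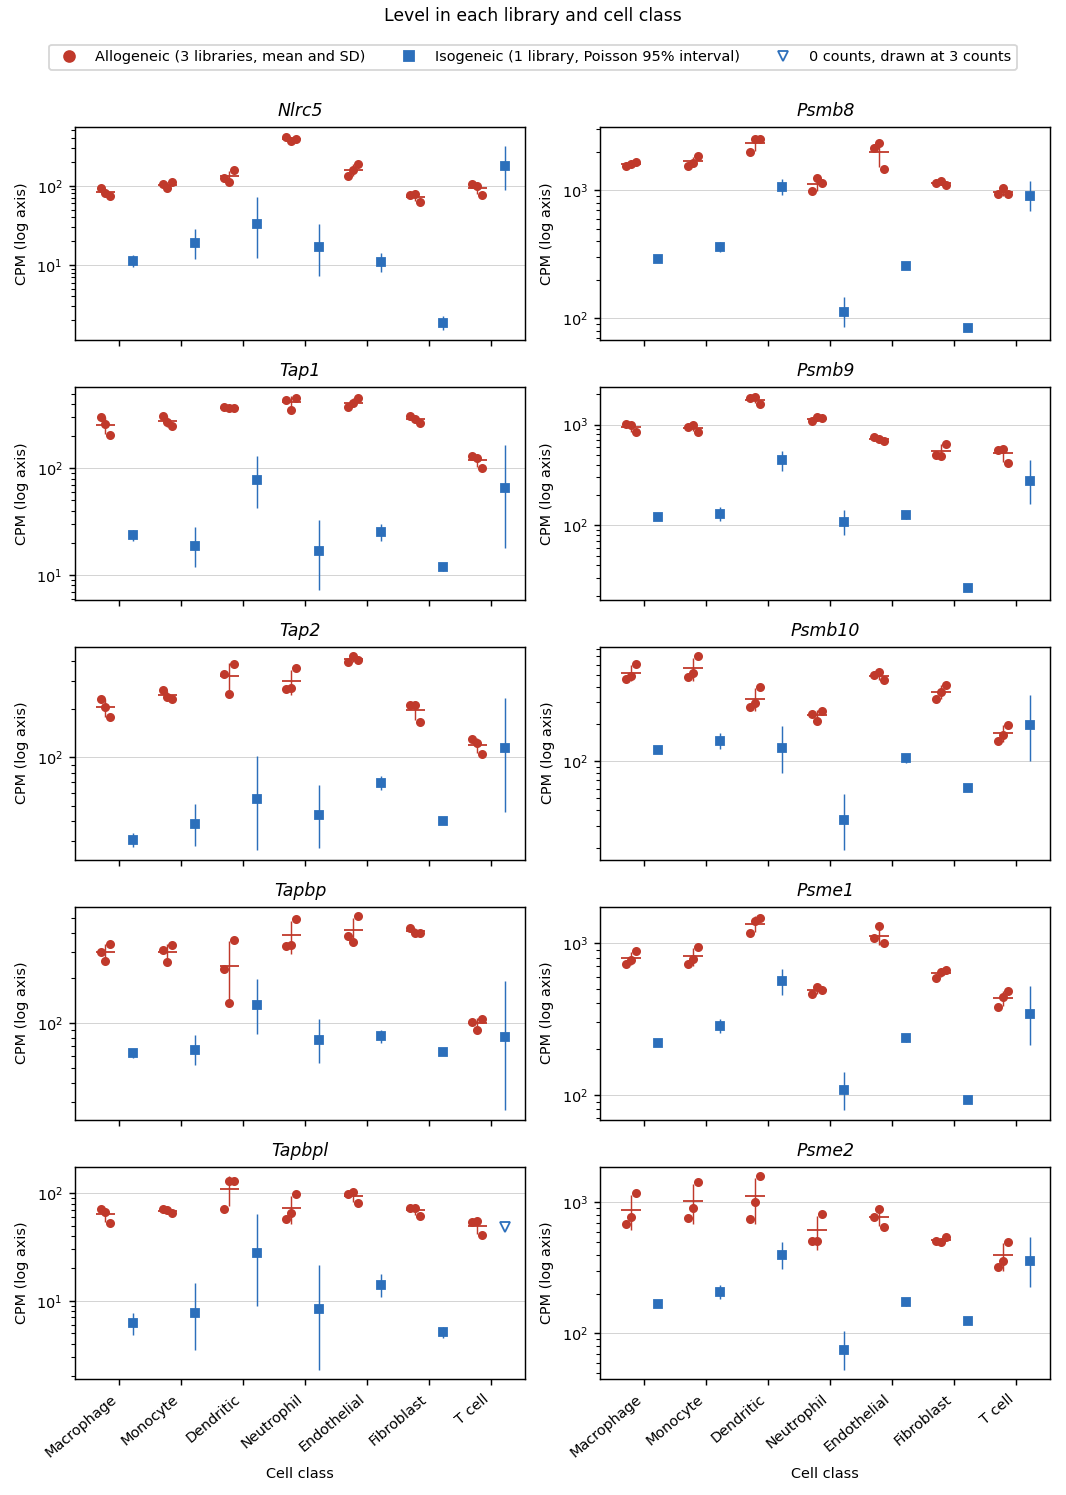
Level of each of the 10 genes in CPM (log axis) by cell class: red points are the 3 allogeneic libraries with their mean and SD, blue squares the isograft with its Poisson 95% interval, and an open triangle marks 0 counts drawn at 3 counts. Every red point lies above the blue square in the first 6 classes of every panel, though bars can overlap, as for Tapbp in dendritic cells. In T cells the points of the groups are apart for 7 of the 10 genes, with Nlrc5 lower in the allografts, and the blue intervals are wide.

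**Figure D2:**
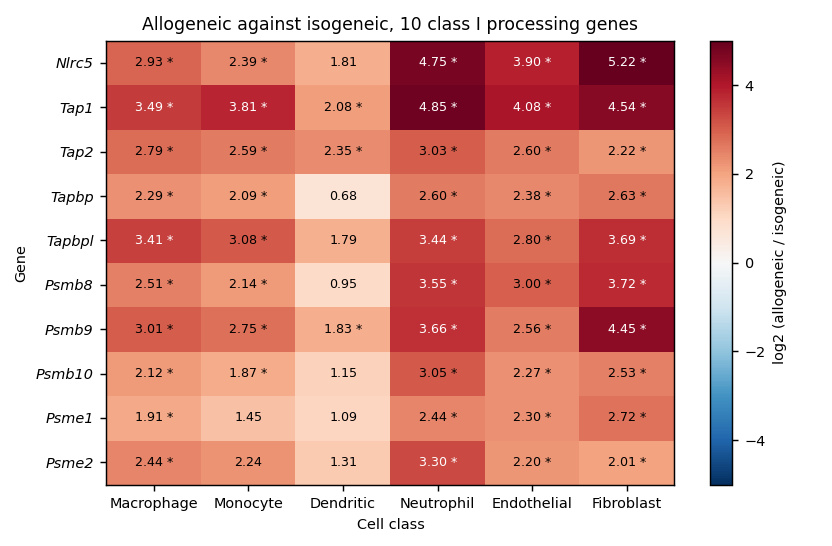
Log2 change, allogeneic over isogeneic, of the 10 genes (rows) in 6 cell classes (columns) from edgeR, with an asterisk where the adjusted p is under 0.05. Every cell is red; the largest value is 5.22 for Nlrc5 in fibroblasts, and the asterisks are fewest, 3, in dendritic cells.

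Nlrc5, the transactivator, had the widest range of levels between these 6 classes in the allografts. In neutrophils it was at 419, 365 and 389 CPM in allogeneic replicates 1, 2 and 3 and at 16.8 CPM in the isograft, on 8 UMIs (Poisson 95% interval 7.23 to 33.0). The 3 allografts lay close together and far above the isograft (log2 change 4.75, SE 0.72, edgeR adjusted p = 0.00101). In fibroblasts it was at 76.1, 78.7 and 62.4 CPM in the allografts and 1.85 CPM in the isograft (5.22, SE 0.38, edgeR adjusted p = 0.000551). Endothelial cells had 134, 160 and 187 CPM in the allografts and 11.0 CPM in the isograft (3.90, SE 0.33), macrophages 92.9, 81.7 and 74.9 CPM and 11.2 CPM (2.93, SE 0.22), and monocytes 105, 94.9 and 111 CPM and 18.8 CPM (2.39, SE 0.25). In dendritic cells, with 127, 111 and 158 CPM in the allografts and 33.1 CPM on few isograft counts, the change of 1.81 (SE 0.53) was not called (edgeR adjusted p = 0.149). Among these 6 classes neutrophils ranked first in the allografts and fibroblasts last, and the macrophage and fibroblast means, 83.1 ± 9.09 and 72.4 ± 8.77 CPM (SD, n = 3), differed by about the spread of either. In the isograft dendritic cells ranked first and fibroblasts last.

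Tap1, the transporter subunit whose gene shares its start region with Psmb9, had the largest change of the 10 in macrophages, monocytes, neutrophils and endothelial cells. Its level was 302, 260 and 207 CPM in allograft macrophages and 23.5 CPM in those of the isograft (log2 change 3.49, SE 0.31, edgeR adjusted p = 0.00736). Endothelial cells had 378, 407 and 456 CPM in the allografts and 25.2 CPM in the isograft (4.08, SE 0.30), and fibroblasts 311, 292 and 265 CPM and 11.9 CPM (4.54, SE 0.36). Neutrophils had 441, 350 and 454 CPM in the allografts and 16.8 CPM in the isograft (4.85, SE 0.74). The allografts stood far above the isograft in each of these 4 classes, and the lowest allograft value in macrophages was that of replicate 3. Tap1 was also 1 of the 3 genes called in dendritic cells, at 372, 370 and 367 CPM in the allografts and 77.3 CPM in the isograft (2.08, SE 0.40, edgeR adjusted p = 0.0279).

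Tap2, the other transporter subunit, varied less between classes in the isograft than Tap1 did. It was at 393, 426 and 404 CPM in allograft endothelial cells and 69.3 CPM in those of the isograft, the highest level of both groups (log2 change 2.60, SE 0.26, edgeR adjusted p = 0.00493). Its lowest isograft level was in macrophages, at 30.7 CPM, against 232, 206 and 179 CPM in the allografts (2.79, SE 0.25). The changes called lay between 2.22 in fibroblasts and 3.03 in neutrophils, with 2.35 in dendritic cells (SE 0.47, edgeR adjusted p = 0.0338). The difference of the change among classes did not pass (edgeR adjusted p = 0.602).

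The chaperones differed in size of change. Tapbp, the tapasin gene, was at 435, 401 and 402 CPM in allograft fibroblasts and 64.1 CPM in those of the isograft (log2 change 2.63, SE 0.31, edgeR adjusted p = 0.00435), with called changes of 2.09 to 2.63 in monocytes, macrophages, endothelial cells, neutrophils and fibroblasts. In dendritic cells its allograft values spread from 137 to 357 CPM over 133 CPM in the isograft, and the change of 0.68 (SE 0.52) was the smallest of any of the 10 genes in the 6 classes (edgeR adjusted p = 0.619). Tapbpl was low throughout: 71.0, 66.2 and 53.3 CPM in allograft macrophages and 6.15 CPM in the isograft. Its change was still among the largest there (3.41, SE 0.26, edgeR adjusted p = 0.00605), and in fibroblasts, with 72.2, 73.3 and 61.6 CPM in the allografts and 5.11 CPM in the isograft, it was 3.69 (SE 0.34). In neutrophils (3.44, SE 0.78) the isograft value of 8.38 CPM rested on 4 UMIs, and the call was lost without replicate 3 (edgeR adjusted p = 0.103).

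Of the 3 immunoproteasome subunits, Psmb9 had a larger fitted change than Psmb10 in all 6 classes, a difference between genes that was not tested. Psmb8 was at 1134, 1191 and 1111 CPM in allograft fibroblasts and 83.5 CPM in those of the isograft (log2 change 3.72, SE 0.34, edgeR adjusted p = 0.00123). In endothelial cells it was at 2132, 2352 and 1484 CPM and 257 CPM (3.0, SE 0.37), in macrophages at 1562, 1599 and 1670 CPM and 291 CPM (2.51, SE 0.22), and in neutrophils at 983, 1245 and 1144 CPM and 113 CPM (3.55, SE 0.66). Replicate 3 was the lowest allograft in endothelial cells and the highest in macrophages. Dendritic cells had the highest level in both groups, 1986, 2514 and 2509 CPM in the allografts and 1072 CPM in the isograft, and their change of 0.95 (SE 0.28) was not called (edgeR adjusted p = 0.152).

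Psmb9 was at 499, 489 and 650 CPM in allograft fibroblasts and 24.0 CPM in those of the isograft (log2 change 4.45, SE 0.41, edgeR adjusted p = 0.00127), and its change was largest in that class and smallest in dendritic cells, which had the highest level of both groups. Those had 1826, 1875 and 1621 CPM in the allografts and 442 CPM in the isograft (1.83, SE 0.30, edgeR adjusted p = 0.0118). Psmb10 was at 461, 488 and 603 CPM in allograft macrophages and 123 CPM in the isograft (2.12, SE 0.27, edgeR adjusted p = 0.0167), with called changes of 1.87 in monocytes to 3.05 in neutrophils. In allograft neutrophils its level, 239, 210 and 254 CPM, was the lowest of the 6 classes, and the isograft level of 33.5 CPM was too.

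The PA28 pair gave the smallest change in 5 of the 6 classes, Psme1 in macrophages, monocytes and neutrophils and Psme2 in endothelial cells and fibroblasts. Psme1 was at 730, 777 and 879 CPM in allograft macrophages and 218 CPM in the isograft (log2 change 1.91, SE 0.24, edgeR adjusted p = 0.0152), and without replicate 1 the adjusted p was 0.0539. Psme2 was at 690, 772 and 1174 CPM there and 167 CPM in the isograft (2.44, SE 0.41, edgeR adjusted p = 0.028). Replicate 3 was the highest allograft for Psme2 in macrophages, monocytes, dendritic cells, neutrophils and fibroblasts, while in endothelial cells it was the lowest. In monocytes the pair missed the threshold, Psme1 at 1.45 (SE 0.25, edgeR adjusted p = 0.0518) and Psme2 at 2.24 (SE 0.43, edgeR adjusted p = 0.0646), although no allograft value reached down to the isograft's. Psme2 has a related copy, Psme2b on chromosome 11, which was read at 11.0, 12.0 and 16.0 CPM in allograft macrophages and 2.16 CPM in the isograft; how reads were split between the copies is not given, so Psme2 values are uncertain to that extent. The neighbours Tap1 and Psmb9, and Tapbp and Zbtb22, likewise share annotated exon bases. Nlrc5, Psmb8, Psme1, Tap2 and Tapbp also share exon bases with other genes on the opposite strand. The use of strand is not given, and the part of these overlaps in the counts was not tested.

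Both groups' levels were set against each other across the 6 classes. In the allografts the class with the highest mean was 1.62 (Tap1) to 5.40 (Nlrc5) times the class with the lowest, and in the isograft 2.11 (Tapbp) to 18.4 (Psmb9) times. The ratio was smaller in the allografts for all 10 genes by their mean, and for 8 of the 10 also in each allogeneic library on its own. For Psmb8, for instance, it was 2.08 in the allografts and 12.8 in the isograft, where dendritic cells were highest and fibroblasts lowest. The exceptions were Tap2 and Tapbp, whose ratio reached 2.42 and 2.93 in single allografts, against 2.26 and 2.11 in the isograft. Some isograft levels rest on few counts (5 UMIs for Tapbpl in dendritic cells), which widens the isograft's range, and the difference between the groups in this ratio was not tested.

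The balance of immunoproteasome and constitutive catalytic transcripts was read as a share of the UMIs of each pair. The pairs were Psmb8 with Psmb5, Psmb9 with Psmb6 and Psmb10 with Psmb7, and the share is that of the immunoproteasome gene. Transcript shares do not measure which subunits the assembled proteasomes held. In fibroblasts Psmb8 made up 83.8%, 82.8% and 83.3% of its pair in the allografts and 25.7% in the isograft (exact binomial 95% interval 25.04 to 26.3). Psmb9 made up 63.5%, 59.4% and 70.6% and 8.21% (7.79 to 8.65), and Psmb10 67.0%, 75.3% and 80.5% and 39.0% (37.9 to 40.02). Fibroblasts thus had the lowest isograft share of Psmb8 and of Psmb9 among the 6 classes. In macrophages the shares were 88.0% ± 1.20 for Psmb8 in the allografts (SD, n = 3) and 57.7% in the isograft, 68.2% ± 3.14 for Psmb9 and 22.6%, and 81.8% ± 0.860 for Psmb10 and 54.2%. Endothelial cells had 90.1% ± 1.35 and 52.7% for Psmb8, 67.4% ± 3.80 and 29.4% for Psmb9, and 77.9% ± 1.33 and 49.6% for Psmb10. Neutrophil shares rested on as few as 42 UMIs of a pair, and Psmb10 had its widest gap there, 89.5% ± 9.84 in the allografts and 32% in the isograft (19.5 to 46.7). In dendritic cells Psmb8 made up 89.5% ± 1.61 in the allografts against 82.2% for the isograft, while the Psmb10 share, 66.3% ± 5.89 in the allografts and 60.5% in the isograft, lay within the isograft's interval (43.4 to 76.0). Across these 6 classes and 3 pairs the isograft share was below every allogeneic library's in all 18 cases. The exact two-sided permutation test gave p = 0.25 in 17 of the 18, the smallest that 3 libraries against 1 allow, and p = 0.5 by the exact permutation test for Psmb10 in dendritic cells, so no share can pass at 0.05. The intervals cover counting error only.

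**Figure D3:**
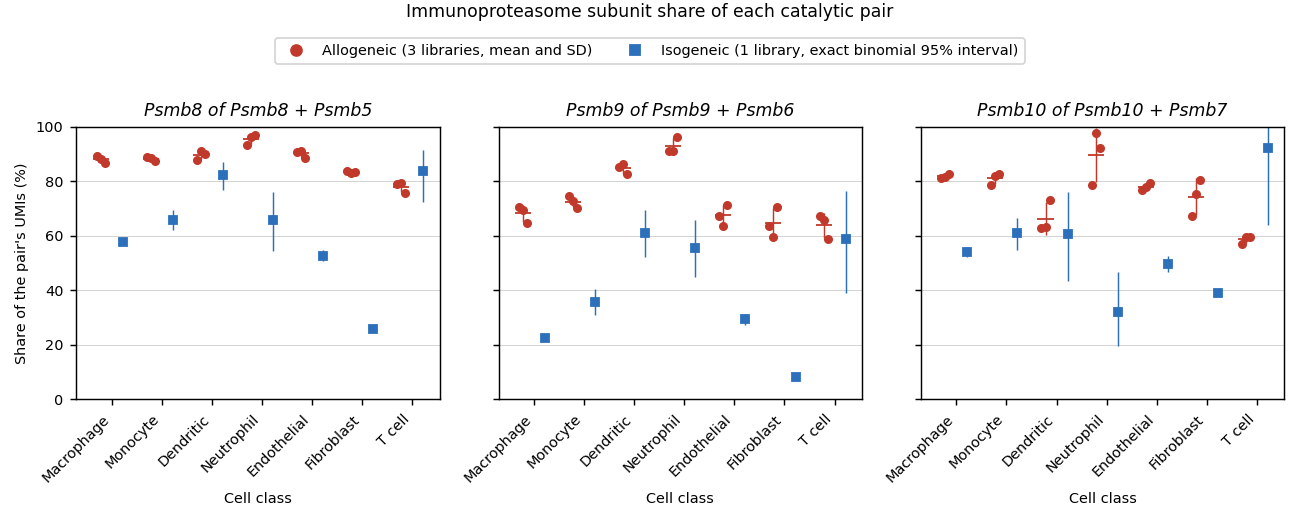
Share of the immunoproteasome gene in the UMIs of its catalytic pair (percent) by cell class, with red points for the 3 allogeneic libraries (mean and SD) and blue squares for the isograft (exact binomial 95% interval). Of the 7 classes drawn, the gap is widest in fibroblasts for Psmb8 (83.3% and 25.7%) and Psmb9 and in neutrophils for Psmb10. In T cells the isograft squares lie above the red points for Psmb8 and Psmb10. The Psmb8 red points are within the isograft interval there, and the Psmb10 square rests on 13 UMIs (64.0 to 99.8).

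The genes of the subunits that can be replaced were not called. Psmb5, Psmb6 and Psmb7, the constitutive catalytic subunits, passed in none of the 6 classes, with log2 changes of -0.13 to 0.21 for Psmb5, 0.0048 to 0.50 for Psmb6 and -1.16 to 0.77 for Psmb7. Psmb5 was at 219, 247 and 222 CPM in allograft fibroblasts and 242 CPM in the isograft. Of 26 other genes of the pathway (the constitutive core, class I chains, loading chaperones and regulators), 9 were called higher in macrophages, 6 in endothelial cells, 6 in fibroblasts, 4 in monocytes, 4 of 19 tested in neutrophils and 1 of 24 tested in dendritic cells, and none lower. Their median log2 change was 0.51 in macrophages, 0.70 in endothelial cells and 0.34 in fibroblasts.

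Those called were class I chains and regulators, together with Erap1 and, in macrophages, Psma7. B2m, the light chain of class I, was at 2960, 3190 and 2942 CPM in allograft fibroblasts and 555 CPM in the isograft (log2 change 2.39, SE 0.31, edgeR adjusted p = 0.00646). H2-K1, a classical heavy chain, was at 3601, 3460 and 2781 CPM there and 299.7 CPM in the isograft (3.39, SE 0.35). Irf1, an interferon-induced transcription factor, was called in 5 of the 6 classes and missed the threshold in fibroblasts (1.98, SE 0.43, edgeR adjusted p = 0.053). The general chaperones of the endoplasmic reticulum that also serve class I, Canx, Calr and Pdia3, passed in none of the 6 classes, with changes of -0.51 to 1.03. Erap1, which trims peptides after transport, was called in macrophages (1.24), endothelial cells (1.55) and fibroblasts (1.89). Of the RFX subunits that Nlrc5 and Ciita work through, Rfx5, Rfxap and Rfxank, none was called in the classes where they were tested. Ciita, the class II counterpart of Nlrc5, was at 171, 145 and 87.0 CPM in allograft macrophages and 4.57 CPM in the isograft (4.92, SE 0.51, edgeR adjusted p = 0.0108).

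**Figure D4:**
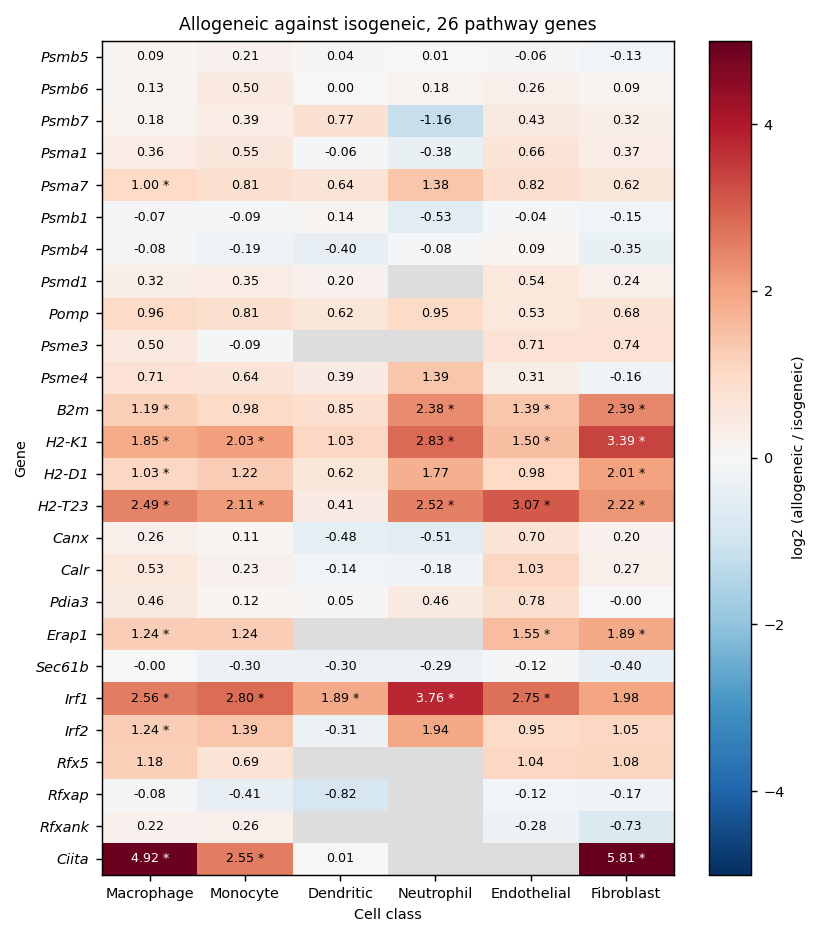
Log2 change, allogeneic over isogeneic, of 26 other genes of the pathway (rows) in 6 cell classes (columns), with an asterisk where the edgeR adjusted p is under 0.05 and grey where a gene was not tested or had 3 or fewer isograft counts. Among rows of the proteasome core Psma7 in macrophages (1.00) has the 1 asterisk, while Irf1 has one in 5 of the 6 classes.

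T cells are described apart from these classes because the isograft held so few. The isograft held 37 of them, with 61403 UMIs in all, and none of the 10 genes passed, nor did any of 13267 genes tested (0% called; 1496 genes at an unadjusted p under 0.05, and 117 called by DESeq2, with 0.731% of genes called higher). The T cell fit put the median of all genes at a log2 change of 1.01, so its changes are to be read against that shift, and the levels are given instead. Psmb8 was at 937, 1045 and 936 CPM in allograft T cells and 912 CPM in those of the isograft (Poisson 95% interval 689 to 1184), so all 3 allografts lay within that interval. Psmb9 was at 564, 579 and 414 CPM in the allografts and 277 CPM in the isograft (161 to 443), and 2 of the 3 allografts lay above that interval (unadjusted p = 0.0113, edgeR adjusted p = 0.314). Nlrc5 was at 106, 99.0 and 77.1 CPM in the allografts and 179 CPM on 11 isograft UMIs (89.4 to 321), Tap2 at 131, 124 and 106 CPM and 114 CPM (45.8 to 235), and Tap1 at 131, 124 and 101 CPM and 65.1 CPM (17.7 to 167). Tapbpl had 0 of the isograft's T cell UMIs, which allows up to 48.9 CPM at 3 counts and 60.1 CPM by the Poisson interval, beside 54.1, 55.4 and 40.8 CPM in the allografts, all below the Poisson limit. The Psmb8 share of its pair was 77.9% ± 1.94 in allograft T cells and 83.6% in the isograft (exact binomial 95% interval 72.5 to 91.5).

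Levels were also read in classes with too few cells for the test. Mural cells, the pericytes and smooth muscle of vessels, numbered 14, 47 and 32 in the allografts and 253 in the isograft. There Psmb8 was at 1220, 1869 and 1609 CPM in the allografts and 57.0 CPM in the isograft (44.6 to 71.8), and Psmb10 at 604, 613 and 789 CPM and 76.0 CPM. The Psmb8 share of its pair was 82.9%, 88.3% and 85.9% in allograft mural cells and 15.9% in those of the isograft (exact binomial 95% interval 12.6 to 19.6). In the few NK cells, 77, 85 and 128 in the allografts and 8 in the isograft, Psmb8 was at 817, 987 and 799.7 CPM and 769 CPM (493 to 1144). Among the sums that were tested, in droplets rich in haemoglobin transcripts none of the 10 was called with all libraries (0.284% of 5273 genes called higher), though no allograft value of the 10 reached the isograft's: Psmb8 was at 1527, 1359 and 951 CPM and 162 CPM, and the lowest adjusted p of the 10 was 0.0522. DESeq2 called 4 of the 10 there (0.815% of genes called higher). With all cells of a library summed, none of the 10 and no gene of 20038 was called by edgeR (0% called; 3421 genes at an unadjusted p under 0.05), while DESeq2 called 10 of the 10, beside 3876 genes in all (12.2% called higher), and edgeR without replicate 3 also called 10, where 31.3% of genes were called higher.

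Whether the allogeneic change itself differed among classes was tested with the library as a block over 8 classes. Shares of all genes are given for the main setting only, and counts of the 10 under other settings stand without them. The difference passed for Nlrc5 (edgeR adjusted p = 0.000187), Psmb8 (edgeR adjusted p = 0.0016) and Psmb9 (edgeR adjusted p = 0.0161), 3 of the 10, where 7.54% of 15791 genes passed. Against macrophages, the change of Nlrc5 was larger in fibroblasts by 2.35 on the log2 scale (SE 0.45, edgeR adjusted p = 0.0021; 5.37% of genes called) and smaller in T cells, by -3.13 (SE 0.64, edgeR adjusted p = 0.00961; 2.20% of genes called). The change of Nlrc5 and of Psmb8 differed among classes in all 9 other settings tried, and that of Psmb9 in 6, but not without replicate 1, without replicate 2 or with stricter gates. The number of genes passing was 2 to 9 of the 10 over these settings, with 9 without replicate 3. The larger change of Nlrc5 in fibroblasts than in macrophages was called in all 8 settings in which fibroblasts could enter (2.15 to 2.42). The T cell difference from macrophages was called in 8 of 9.

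Within the allografts, levels were compared between classes with the library as a block, each class against the mean of the other classes. Here too, shares of all genes are given for the main setting only. Dendritic cells were higher in Psmb8, Psmb9, Psme1, Psme2 and Tap1, 5 of the 10, where 13.0% of 12663 genes were higher, with Psmb9 furthest above (log2 difference 1.21, SE 0.19, edgeR adjusted p = 5.2e-06). Endothelial cells were higher in 6 (30.2% of genes higher), led by Tap2 (0.94, SE 0.18). T cells were lower in 9, all but Nlrc5 (19.7% of genes lower), led by Tapbp (-1.57, SE 0.23), and NK cells lower in 9, all but Tapbpl (16.5%), led by Tap1 (-1.56, SE 0.23). Macrophages (21.6%) and monocytes (20.7%) were each higher in Psmb10 and Psme2, 2 of the 10, which is about the share of all genes. Over the other settings the number higher ran from 1 to 8 in both classes. Fibroblasts were higher in Tapbp (0.90, SE 0.18; 30.4%) and lower in Nlrc5 (-0.62, SE 0.20; 15.3%). Droplets rich in cardiac transcripts were lower in Nlrc5, Tap1, Tap2 and Psmb9 (6.52%) and higher in Psmb10 (8.72%). For fibroblasts in either direction, and for genes higher in these droplets, 1 of the 10 was near or below the share of all genes. Neutrophils were higher in 8 (21.6%), led by Nlrc5 (2.90, SE 0.18) and Tap1 (1.81, SE 0.18). In CPM Nlrc5 was also highest there, while Tap1 in neutrophils and endothelial cells did not differ beyond their spread. The fit scaled the neutrophil sums by factors of 0.849, 0.669 and 0.396, against 0.885 to 0.931 in macrophages, which raises neutrophil levels over their CPM: Psmb8 had 1124 CPM there, below the endothelial and macrophage means, yet was 0.56 above the other classes in the fit (SE 0.20), and -0.028 with no filter on low counts. Without replicate 2 the number of calls over all classes was 26 in place of 48.

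Transcripts of other cells were read beside these results. The 4 macrophage markers summed to 570, 435 and 59.2 CPM in allograft endothelial cells and 189 CPM in those of the isograft, and to 698, 314 and 397 CPM and 98.3 CPM in fibroblasts, against 12174 to 13039 CPM and 12288 CPM in macrophages. The T cell markers summed to 79.4, 76.2 and 17.3 CPM in allograft endothelial cells and 2.79 CPM in the isograft, against 3447 to 4593 CPM and 4641 CPM in T cells. Endothelial Psmb8 in replicates 1 and 2 was above the macrophage level of the same library, and endothelial and fibroblast Tap1 was above it in all 3 allografts. In neutrophils the monocyte markers summed to 1330, 1970 and 2312 CPM in the allografts and 356 CPM in the isograft, and the macrophage markers to 1395, 875 and 124 CPM and 367 CPM. Neutrophil Nlrc5, Tap1, Tap2, Tapbp and Psmb9 were above the monocyte and macrophage level in every allograft, and the other 5 genes were not. In macrophages the monocyte markers summed to 835, 821 and 967 CPM in the allografts and 89.7 CPM in the isograft, and the T cell markers to 92.9, 93.1 and 18.0 CPM and 4.08 CPM. The fibroblast markers were higher in the isograft in macrophages, at 25.6, 62.4 and 289 CPM in the allografts and 519 CPM in the isograft. They were so too in monocytes (34.9 to 227 CPM and 461 CPM) and neutrophils (28.9 to 358 CPM and 907 CPM). In dendritic cells the isograft's 304 CPM lay within the allograft range, 12.5 to 367 CPM. In endothelial cells its 559 CPM did too, in a range of 52.9 to 605 CPM. The part of all these transcripts in the results was not tested.

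Over the 47 library-and-class sums with at least 20 cells, each of the 10 genes followed the mean of the other nine, with Pearson's r of 0.79 for Tapbpl to 0.96 for Tap1 on log2(CPM + 1). The closest pair was Psmb8 and Psme1 (0.94) and the least alike Nlrc5 and Tapbpl (0.62). In all, 8813 genes, the 10 among them, reached 50 CPM in at least 1 sum. Outside the 10, those reported here as most like the mean of the 10 were H2-K1 (0.90), Cxcl9 (0.90), Gbp8 (0.89), B2m (0.89), Zbp1 (0.88), H2-T23 (0.86) and Gbp4 (0.85). They are class I genes, a T cell chemokine, guanylate-binding proteins and a nucleic acid sensor. The sums of a class come from the same 4 libraries and are not independent, so these are descriptions.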

How the data were processed

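The values used are the authors' deposited counts, unnormalized whole UMIs for each gene in each barcode. Libraries came, per the labels' protocols, from a Chromium 3' kit (v3.1). Cell Ranger 3.1.0 and build mm10 stand in the submitters' processing notes, but 6.1.0 in the matrix headers; the version that made the counts, and the use of strand, are not given in the sources used here. Of the gene identifiers 32403 were found in GENCODE M21, 29819 of them with the same symbol.

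Barcodes with at least 500 UMIs, 300 genes and at most 20% mitochondrial UMIs were kept, and the highest Scrublet scores (scanpy 1.11.5) were removed as doublets at 0.8% per 1000 barcodes. Cells were classed by markers: UMIs per 10000, each marker capped at its 90th percentile, a mean of at least 0.15 for the first class and at most 0.5 times that for the second, and macrophages told from monocytes by C1q UMIs of at least 20 against under 10 per 10000. Monocytes also needed a mean of at least 0.1 over the monocyte markers. The limit on the second class did not count haemoglobin markers for any class. It did not count endothelial markers for lymphatic endothelial cells, nor mononuclear phagocyte markers for neutrophils and dendritic cells. Neutrophils and dendritic cells were therefore not screened against phagocyte transcripts. The markers were listed in the design, but these thresholds were set after marker scores had been seen. Counts were summed per library and class. Classes with at least 20 cells in every library were compared, 3 allogeneic libraries against 1, by the edgeR 4.0.16 quasi-likelihood test (R 4.3.3, TMM, default filter, Benjamini-Hochberg over all genes, 0.05). The spread comes from the allogeneic libraries and is taken to hold for the 1 isogeneic library too, which leaves 2 residual degrees of freedom, and SE is the absolute log2 change over the square root of F, approximate only. Comparisons between classes had the library as a block. The code was tested on simulated data. Alternatives were DESeq2 1.42.0 and its size factors, no filter, each allogeneic library left out, doublets kept, at most 10% mitochondrial UMIs, stricter gates and macrophages joined with monocytes. The genes and lists were chosen with earlier results of these data known. By the naming rule, the text names the 10 genes, the pathway genes of a list (26 here) and the genes most like the 10 (7 here); 1 gene of both lists is not reported here.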

Additional observations from a re-analysis of the deposited data

Results flagged for a closer look

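The allogeneic change differed among cell classes for 3 of the 10 genes in the test of that difference itself, with the library as a block: Nlrc5 (edgeR adjusted p = 0.000187), Psmb8 (edgeR adjusted p = 0.0016) and Psmb9 (edgeR adjusted p = 0.0161). For Nlrc5, the change in fibroblasts was larger than that in macrophages by 2.35 on the log2 scale, with fibroblasts at 72.4 ± 8.77 CPM in the allografts and 1.85 CPM in the isograft and macrophages at 83.1 ± 9.09 CPM and 11.2 CPM (SD, n = 3). In T cells the Nlrc5 change lay -3.13 from that in macrophages, with 93.9 ± 15.0 CPM in the allografts and 179 CPM on 11 UMIs in the isograft, where 37 T cells were kept.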

How the results depend on the processing

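Of 360 values of the 10 genes in macrophages, neutrophils, endothelial cells and fibroblasts under the other settings, 356 kept their call and direction, 4 lost the call and 0 turned. With monocytes and dendritic cells added, 509 of 540 kept them, 11 lost the call and the others gained it. The values that turned were Psmb10 in T cells (-0.025 without replicate 3, in a range of leaving 1 out that reached 0.24, and -0.15 with stricter gates), Tapbp in T cells (-0.015 with stricter gates), neither called in any of these, and the neutrophil level of Psmb8 (-0.028 with no filter). The causes of these shifts were not tested.

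With 1 allogeneic library left out in turn, the genes of the 10 called higher numbered 9 to 10 in macrophages, 1 to 10 in monocytes, 3 to 8 in dendritic cells, 8 to 10 in neutrophils, 0 to 1 in T cells, 3 to 9 in haemoglobin-rich droplets and 0 to 10 in all cells summed. The difference among classes was called for 2 to 9 and levels between classes 26 to 63 times. Genes called in all numbered 290 to 7881 in macrophages (1547 with all libraries), 53 to 2980 in monocytes (281), 97 to 563 in dendritic cells (84), 177 to 515 in neutrophils (208), 242 to 4523 in endothelial cells (534), 459 to 1801 in fibroblasts (482), 0 to 662 in T cells (0), 71 to 796 in haemoglobin-rich droplets (16) and 0 to 12599 in all cells (0), each highest without replicate 3. With stricter gates the share differences in points were 28.8, 25.2 and 33.5 for Psmb8 in macrophages, monocytes and endothelial cells, 43.2 and 14.8 for Psmb9 and Psmb10 in monocytes and -43.4 for Psmb10 in T cells. With doublets kept they were 24.4 and 56.2 for Psmb8 in neutrophils and fibroblasts and -32.0 for Psmb10 in T cells. The T cell differences of Psmb10 rest on few isograft UMIs of the pair, 13 in the main setting. For the fits with 1 library left out, shares of all genes called are not given, apart from those in the results above. Their counts of the 10 are to be read beside the totals of all genes here, not as a result about the 10.

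With no filter on low counts, genes called were 2694 in macrophages, 882 in monocytes, 267 in dendritic cells, 1200 in endothelial cells, 1779 in fibroblasts, 11 in T cells and 387 in haemoglobin-rich droplets, and 7 and 8 of the 10 were called in dendritic cells and haemoglobin-rich droplets. DESeq2 called 554 genes in monocytes, 45 in dendritic cells, 830 in fibroblasts, 117 in T cells, 44 in haemoglobin-rich droplets (4 of the 10) and 3876 in all cells (10 of the 10). Joined with macrophages, monocytes had 1873. In haemoglobin-rich droplets 121 genes and 7 of the 10 were called with doublets kept, and 30 and 2 at 10% mitochondrial UMIs. The difference among classes was called for 7 of the 10 with DESeq2 size factors, 6 with no filter, 5 with doublets kept, 6 at 10% mitochondrial UMIs and 6 without the droplets rich in cardiac or haemoglobin transcripts, a setting chosen after seeing the data. For that difference and for levels between classes, shares of all genes are given in the main setting only. The counts of the 10 under other settings stand without them. With stricter gates dendritic cells, fibroblasts and haemoglobin-rich droplets were too few to enter the comparison of groups. No paired analysis was possible because the groups share only 1 replicate number. Of the classes tested, T cells had the fewest UMIs in the isograft, 61403.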
